A study of Mus musculus with 9 samples.

Results

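The Dlk1-Dio3 imprinted miRNA cluster is a run of microRNA (miRNA) hairpins on mouse chromosome 12, and its mature miRNAs were followed here in mouse liver after acetaminophen (APAP) overdose, with and without a prostaglandin given first. The members are a list of 43 mature miRNAs whose hairpins lie in this locus, chosen by position and not by their levels, though with earlier results of these data known. Of the 43, 40 had a row among the 946 mature miRNAs counted. Levels of the other 3, miR-376a-3p, miR-377-3p and miR-665-3p, were not analysed here. Of the 40, 17 held enough reads to be tested and 23 fell below the filter on low counts.

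Small-RNA libraries were made from livers of wild-type C57 BL6 mice aged 8 weeks, 3 libraries in each of 3 groups. Control animals received saline. APAP animals received acetaminophen at 500 mg/kg by intraperitoneal injection, an overdose that liver enzymes turn into a reactive metabolite that kills hepatocytes. The dmPGE2+APAP animals received dmPGE2, a methylated and longer-lived analog of prostaglandin E2, at 300 µg/kg by the same route 1 h before that APAP dose. All livers were taken 6 h after APAP. No group received dmPGE2 without APAP and no vehicle for dmPGE2 is named, so dmPGE2 was measured only on top of APAP. Whether the libraries come from different animals is not in the labels, and p-values therefore measure only how far these libraries spread, which may be technical. Because these are whole-liver libraries, fewer cells of a type and less RNA per cell cannot be told apart.

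The locus is imprinted: its non-coding transcripts, Meg3, the antisense transcript of Rtl1, Rian and Mirg, are made from the maternal chromosome, and the miRNA hairpins are cut from them. The paternal chromosome instead expresses the protein-coding genes Dlk1, Rtl1 and Dio3. The miRNAs are abundant in embryo, placenta and brain, and low in most adult tissues, liver included. As with any miRNA, the seed, bases 2 to 8 of the mature strand, does most of the pairing with messenger RNAs. Several miRNAs of the Rtl1 antisense transcript, miR-127 and miR-136 among them, match the Rtl1 messenger perfectly and direct its cleavage.

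In GRCm38, the locus from Mir770 to Mir3072 spans chr12:109563692-109747960, or 184.3 kb, and holds 57 hairpins in the RefSeq gene table, 3 of them on the minus strand. A stretch of 90.7 kb between Mir370 and Mir379 holds no hairpin of a listed member, though the Mir882 hairpin lies in it. The locus was split at Mir379. The upstream part next to Meg3 holds 14 of the 40 measured members, and the downstream part that runs into Mirg holds 26. All of the 43 listed members had a hairpin in the RefSeq table, and 40 had a mature sequence. The sequences of the members that the values below turn on are given from RefSeq (GRCm38.p6), 5′ to 3′, with the seed in capitals, upstream part first. The prefix mmu marks a mouse miRNA and is left out elsewhere.

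mmu-miR-127-3p: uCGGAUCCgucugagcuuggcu
mmu-miR-127-5p: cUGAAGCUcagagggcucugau
mmu-miR-434-5p: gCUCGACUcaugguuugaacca
mmu-miR-434-3p: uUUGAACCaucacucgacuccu
mmu-miR-136-3p: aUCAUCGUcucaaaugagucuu
mmu-miR-379-5p: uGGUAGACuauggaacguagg
mmu-miR-411-5p: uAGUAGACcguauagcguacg
mmu-miR-411-3p: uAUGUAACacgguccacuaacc
mmu-miR-300-3p: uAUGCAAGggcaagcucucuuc
mmu-miR-381-3p: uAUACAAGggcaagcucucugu
mmu-miR-376b-3p: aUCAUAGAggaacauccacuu
mmu-miR-495-3p: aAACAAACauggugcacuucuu
mmu-miR-134-5p: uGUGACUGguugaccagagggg
mmu-miR-541-5p: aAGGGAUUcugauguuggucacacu
mmu-miR-409-3p: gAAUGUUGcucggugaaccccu

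The 40 members with a sequence are not the 40 measured. They include the 3 without a row, and lack miR-376c-3p, miR-485-5p and miR-487b-3p, which could not be compared. They carried 40 different seeds, so none of them shared an exact seed with another. Among these 40, the seeds of 4 pairs differed at 1 base. These pairs were miR-300-3p with miR-381-3p (19 of 22 bases identical along the whole miRNA, 86.4%), miR-376a-3p with miR-376b-3p (18 of 21), miR-379-5p with miR-411-5p (14 of 21, 66.7%) and miR-410-3p with miR-411-3p (10 of 21). The pair miR-379-5p and miR-411-5p, whose hairpins lie next to each other (Mir379 at chr12:109709060-109709125 and Mir411 at chr12:109710175-109710256), were also the most abundant members in these livers.

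The cluster was a small part of the liver's miRNA. Its 40 rows held 13316 of 58272368 reads, or 0.0229%, and 3 members, miR-411-5p, miR-379-5p and miR-127-3p, held 9170 of them (68.9%). The total counts some reads more than once: 13 pairs of rows, miR-122-5p with miR-122b-3p by far the largest, held nearly the same reads in every library. With 1 row of each pair left out, 46580389 reads remained and the cluster held 0.0286% of them. CPM values use the full totals. Ranked by mean level among all 946 miRNAs, miR-411-5p stood at 101, miR-379-5p at 108, miR-127-3p at 143 and miR-434-5p at 185. Levels are given as CPM, reads scaled to 1e+06 after TMM adjustment of the library totals. Each read stands for a whole mature miRNA, so no length term is needed to set members side by side. Only 4 members averaged 10 CPM or more over the 9 libraries, and 17 averaged 1 CPM or more.

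Depth set what could be seen of the rest. Library totals ran from 7590735 to 10483460 reads in Control, from 3523998 to 7563788 with APAP, and from 1038799 to 6994952 with dmPGE2+APAP. The shallowest library, dmPGE2+APAP replicate 2, held 260 cluster reads, detected 20 of the 40 members, and counted 1 read as 0.852 CPM, so that the 3 reads allowed by a count of 0 come to 2.56 CPM there. The other libraries held 1138 to 3388 cluster reads and detected 29 to 36 members. Controls were told from the other groups by a different column prefix, by elimination, and their replicate numbers are names only.

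The summed level of the cluster overlapped in all 3 groups. As a share of all reads, the cluster held 0.0181%, 0.0172% and 0.0323% in Control replicates 1 to 3, 0.0175%, 0.0169% and 0.0323% with APAP, and 0.0236%, 0.0250% and 0.0295% with dmPGE2+APAP. The exact 95% binomial interval of Control replicate 3, 0.0312% to 0.0334%, did not reach those of replicates 1 (0.0171% to 0.0191%) and 2 (0.0164% to 0.0181%). APAP replicate 3 (0.0304% to 0.0342%) likewise stood apart from both of the others of its group. These intervals cover counting error only. With shared reads counted once, the shares were 0.0217%, 0.0229% and 0.0397% in Control, 0.0218%, 0.0209% and 0.0399% with APAP, and 0.0302%, 0.0315% and 0.0365% with dmPGE2+APAP. Replicate 3 remained the highest of each group.

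Scaled by TMM, the sum came to 201, 228 and 312 CPM in Control, 166, 175 and 272 CPM with APAP, and 234, 222 and 285 CPM with dmPGE2+APAP. Replicate 3 was the highest of each group, and the widest gaps within a group were in Control and APAP. Group means were 247 ± 57.8 CPM in Control, 204 ± 58.8 with APAP, and 247 ± 33.7 with dmPGE2+APAP (SD, n = 3 each). On the log2 scale the sum was lower in APAP than in Control by a difference of -0.29 (SE 0.29), higher in dmPGE2+APAP than in APAP by 0.30 (SE 0.25), and higher in dmPGE2+APAP than in Control by 0.01 (SE 0.22). Each of these differences was smaller than the pooled SD between replicates on the same scale, 0.36, 0.31 and 0.27.

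The first difference also depended on the scaling and on a single library. With library totals in place of TMM, the means were 226 ± 84.7, 222 ± 87.3 and 260 ± 30.4 CPM (SD, n = 3 each) and the log2 difference between APAP and Control was -0.03. It was -0.08 without Control replicate 3 and -0.50 without APAP replicate 3. Leaving out both gave -0.29, and 0.56 for dmPGE2+APAP over APAP. Between dmPGE2+APAP and Control the difference was 0.26 with library totals and 0.22 without Control replicate 3.

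**Figure D1:**
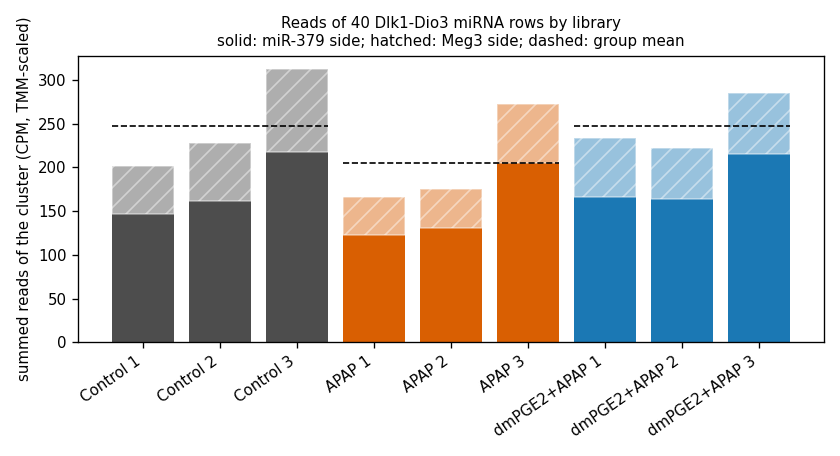
Summed level of the 40 measured members in CPM (y axis, from 0), with 1 bar for each of the 9 liver libraries, coloured by group; the solid piece is the downstream part, the hatched piece the upstream part, and the dashed line the group mean. Replicate 3 is the highest bar in each group (312, 272 and 285 CPM), and the ranges of the 3 groups overlap.

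Along the locus, reads came from few hairpins. Mir411 gave 30.1% of the cluster's reads, Mir379 26.6%, Mir127 13.6%, Mir434 8.73%, Mir381 4%, Mir136 3.62%, Mir541 2.73% and Mir409 2.25%. The upstream part held 27.6% of the reads, mostly from Mir127, Mir434 and Mir136, which lie at 29.2, 30.8 and 31.6 kb from the start of the locus. The share of the upstream part was 28.7% ± 1.58 in Control, 25.5% ± 0.883 with APAP, and 26.6% ± 2.38 with dmPGE2+APAP (SD, n = 3 each). The downstream part held the rest, and Mir379 and Mir411, at 145.4 and 146.5 kb, opened it.

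**Figure D2:**
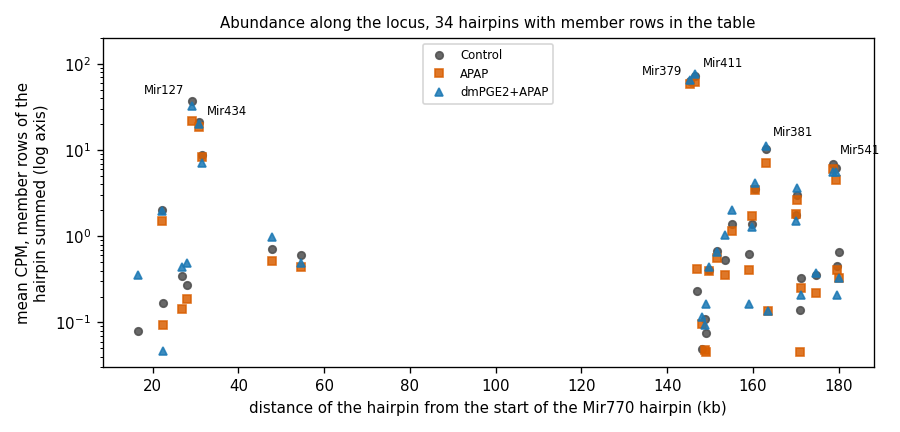
Mean level of each member hairpin in CPM (log y axis) against its distance in kb from the start of the locus, with 1 symbol per group; group means of 0 are left out. Levels peak at Mir127 and Mir434 in the upstream part and at Mir379 and Mir411 at the start of the downstream part. The stretch of 90.7 kb between Mir370 and Mir379 holds no member hairpin.

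In the upstream part, miR-127-3p had the widest range between libraries, as a ratio of highest to lowest, among the 4 most abundant members. Its gene, Mir127, lies at chr12:109592846-109592915, opposite the coding sequence of Rtl1, and Bcl6, a transcriptional repressor, is among its known targets. The level was 24.6, 24.5 and 56.6 CPM in Control, 18.3, 15.2 and 26.1 CPM with APAP, and 28.6, 35.8 and 31.3 CPM with dmPGE2+APAP. Control replicate 3 was the highest of the 9 libraries, and the APAP libraries overlapped Control through APAP replicate 3 but lay below every dmPGE2+APAP library. Its coefficient of variation was 52.6% in Control and 11.5% in dmPGE2+APAP. As a share of the cluster's own reads, which takes out a change common to all members, miR-127-3p made up 12.2%, 10.7% and 18.2% in Control, so replicate 3 stood out there too.

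Relative to miR-411-5p, the most abundant member, miR-127-3p reads came to 0.383, 0.361 and 0.673 in Control, 0.351, 0.284 and 0.352 with APAP, and 0.436, 0.518 and 0.328 with dmPGE2+APAP. These ratios come from within each library and do not depend on scaling. The groups overlapped. For miR-379-5p over miR-411-5p the ratio was 0.720, 0.822 and 1.03 in Control, 0.801, 0.870 and 1.18 with APAP, and 0.920, 0.815 and 0.818 with dmPGE2+APAP, so in Control replicate 3 and APAP replicate 3 miR-379-5p was read more often than miR-411-5p.

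Next in level in the upstream part were miR-434-5p and miR-136-3p. Mir434 (chr12:109594506-109594599) gave miR-434-5p at 13.8, 19.8 and 18.9 CPM in Control, 11.4, 11.8 and 19.1 CPM with APAP, and 16.8, 12.8 and 17.99 CPM with dmPGE2+APAP, and the 3 groups overlapped. For miR-136-3p the values were 7.92, 9.51 and 8.57 CPM in Control, 5.76, 9.59 and 9.56 CPM with APAP, and 9.75, 3.41 and 7.36 CPM with dmPGE2+APAP. The lowest of these came from the shallowest library. Rows miR-136-3p (476 reads) and miR-3071-5p (475 reads, not a listed member) held the same number of reads in every library to within the larger of 5% or 2 reads, a match found after the values were seen. Their mature sequences lie on opposite strands at chr12:109595366-109595387 and chr12:109595363-109595384 and overlap by 19 bases. The strand setting of the counting is not given in the sources used here, so the reads of this pair cannot be told apart.

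In the downstream part, miR-411-5p measured 64.4, 67.8 and 84.2 CPM in Control, 52.1, 53.5 and 74.1 CPM with APAP, and 65.5, 69.0 and 95.5 CPM with dmPGE2+APAP. Its neighbour miR-379-5p measured 46.4, 55.7 and 86.7 CPM in Control, 41.7, 46.6 and 87.5 CPM with APAP, and 60.2, 56.2 and 78.1 CPM with dmPGE2+APAP. For both, replicate 3 was the highest of each group, and the groups overlapped. The means of miR-411-5p and miR-379-5p differed by less than the larger SD in every group: 72.1 ± 10.6 and 62.9 ± 21.1 CPM in Control, 59.9 ± 12.3 and 58.6 ± 25.2 CPM with APAP, and 76.7 ± 16.4 and 64.9 ± 11.6 CPM with dmPGE2+APAP (SD, n = 3 each). Compared within each library, miR-411-5p was the higher of the pair except in Control replicate 3 and APAP replicate 3. Next in order, miR-127-3p lay at 35.3 ± 18.5, 19.85 ± 5.60 and 31.9 ± 3.65 CPM (SD, n = 3 each).

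Further along, miR-381-3p (Mir381, chr12:109726822-109726896) measured 10.1, 7.34 and 13.4 CPM in Control, 5.90, 8.35 and 6.93 CPM with APAP, and 9.47, 13.6 and 10.4 CPM with dmPGE2+APAP. Every dmPGE2+APAP library was above every APAP library, and Control overlapped both. Its near relative miR-300-3p measured 4.40, 3.40 and 2.95 CPM in Control, 3.89, 3.42 and 3.11 CPM with APAP, and 4.24, 4.26 and 4.09 CPM with dmPGE2+APAP. It too was higher in each dmPGE2+APAP library than in each APAP library, by a smaller step. The values of miR-409-3p were 4.55, 5.84 and 4.70 CPM in Control, 3.17, 2.88 and 4.54 CPM with APAP, and 2.83, 6.82 and 5.32 CPM with dmPGE2+APAP. All 3 APAP libraries lay below all 3 Control libraries, the nearest pair being 4.54 and 4.55 CPM.

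In mean level over all libraries, the remaining members with their own values were lower than miR-381-3p. miR-541-5p measured 4.69, 7.07 and 9.21 CPM in Control, 3.89, 4.79 and 9.33 CPM with APAP, and 6.50, 5.11 and 5.32 CPM with dmPGE2+APAP. miR-134-5p, which in neurons represses the kinase Limk1, measured 4.11, 2.45 and 2.49 CPM in Control, 1.73, 2.33 and 3.83 CPM with APAP, and 4.95, 1.70 and 4.29 CPM with dmPGE2+APAP. Both overlapped in all 3 groups. miR-495-3p was between 0.720 and 2.56 CPM, miR-376b-3p, of a family whose seeds can be recoded by A-to-I editing, between 0 and 2.45 CPM, and the other tested members, the upstream miR-337-5p and the downstream miR-382-5p, between 0.576 and 3.40 CPM.

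**Figure D3:**
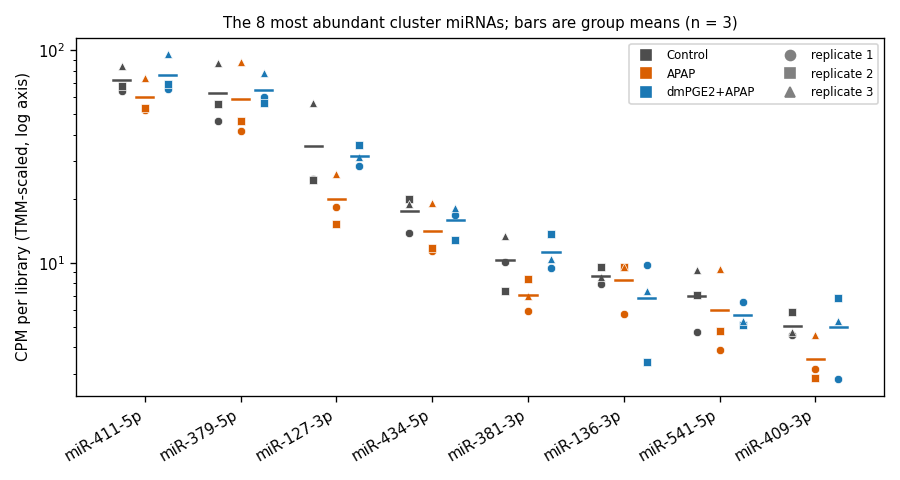
Level of the 8 most abundant members in CPM (log y axis), 1 point per library, coloured by group, with short bars for the group means. miR-127-3p in Control replicate 3 (56.6 CPM) stands clear of the other 8 libraries, and the dmPGE2+APAP points of miR-381-3p lie above its APAP points.

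The 23 members below the filter held 1 to 59 reads each over all libraries. In the upstream part they were miR-341-3p (44 reads), miR-370-3p (29), miR-431-5p (21), miR-433-3p (17), miR-540-3p (7), miR-136-5p (6), miR-493-5p (4) and miR-337-3p (1). In the downstream part, miR-409-5p held 59 reads, miR-494-3p 38, miR-410-3p and miR-543-3p 30 each, miR-329-3p and miR-376c-3p 26 each, miR-369-3p 22, miR-154-5p 20, miR-485-5p 17 and miR-299a-5p 13. The lowest downstream members were miR-323-3p and miR-758-3p with 6 reads each, and miR-380-3p, miR-487b-3p and miR-668-3p with 5 each. Counts this low allow no statement on the groups.

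Each hairpin can give a mature miRNA from either arm. The arm that dominated was measured for 12 hairpins of the locus with at least 100 reads over both arms. Mir541, Mir379, Mir134, Mir337 and Mir136 gave 98.8% to 99.4% of their reads from 1 arm. The Mir136 share counts miR-136-3p reads that cannot be told apart from those of miR-3071-5p. Mir411 gave 97.9% from the 5p arm (3926 against 83 reads, exact 95% interval 97.4% to 98.3%), and Mir127 gave 94.5% from the 3p arm (1707 against 100 reads, 93.3% to 95.5%). The arms of Mir409, Mir434 and Mir376b were less unequal. miR-409-3p took 80.3% (75.4% to 84.7%) and miR-434-5p 78.5% (76.0% to 80.8%) of their hairpin's reads. For Mir376b, miR-376b-3p took 75.2% (66.4% to 82.7%), with 88 reads against 29. Mir382 was read from both arms about equally, with 97 reads of miR-382-5p and 93 of miR-382-3p (51.05%, interval 43.7% to 58.4%). These intervals pool the reads of all 9 libraries and cover counting error only. Single libraries spread wider, from 69.9% to 92.9% for miR-409-3p and from 72.1% to 93.8% for miR-434-5p. For miR-376b-3p they ran from 47.6% to 92.3%. For Mir299a the listed member, miR-299a-5p, was the minor arm, with 13 reads against 174 of miR-299a-3p.

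The arm shares of Mir434 did not separate the groups. By library, miR-434-5p took 77.7%, 85.9% and 81.7% of Mir434 reads in Control, 73.2%, 80.4% and 72.7% with APAP, and 75.8%, 93.8% and 72.1% with dmPGE2+APAP. The highest of these rests on 16 reads in the shallowest library, and the groups overlap. The shares of Mir127, Mir409 and Mir411 overlapped between groups too. The minor arms had low and scattered levels. miR-434-3p measured 3.96, 3.26 and 4.24 CPM in Control, 4.17, 2.88 and 7.17 CPM with APAP, and 5.37, 0.852 and 6.95 CPM with dmPGE2+APAP. miR-411-3p measured 0.440, 2.31 and 1.29 CPM in Control, 0.864, 1.10 and 3.83 CPM with APAP, and 1.41, 0 and 1.84 CPM with dmPGE2+APAP. miR-127-5p measured 1.47, 3.26 and 1.47 CPM in Control, 2.30, 0.685 and 2.39 CPM with APAP, and 1.70, 0 and 1.43 CPM with dmPGE2+APAP. The APAP maximum of miR-434-3p and miR-411-3p came from replicate 3, and the values of 0 and 0.852 CPM all came from dmPGE2+APAP replicate 2.

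**Figure D4:**
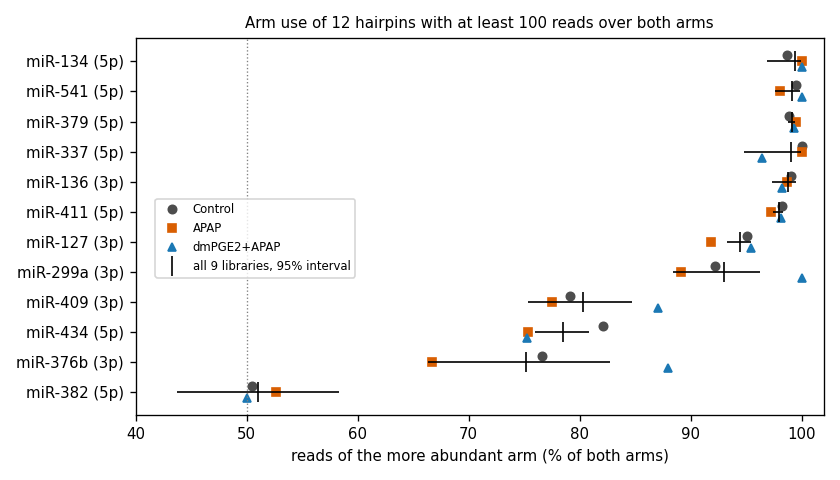
Share of a hairpin's reads that came from its more abundant arm, in percent (x axis), for 12 hairpins (y axis), with 1 symbol per group for its pooled libraries and a black mark with the exact 95% interval for all 9 libraries together. The interval covers counting error only, not the spread between libraries. Mir127 and Mir411 sit at 94.5% and 97.9% over all libraries, Mir409 and Mir434 near 80.3% and 78.5%, and Mir382 at 51.05%.

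The first comparison asked what APAP did to the cluster against saline. None of the 17 tested members passed edgeR's quasi-likelihood test at an adjusted p of 0.05 (Benjamini-Hochberg over all 360 miRNAs tested), and DESeq2 and limma-voom called 0 members as well. Over all 360 miRNAs the same test called 0.833%. At an unadjusted p under 0.05, 1 member was lower, miR-127-3p, where 3.33% of all tested miRNAs were lower at that level, and 0 members were higher, where 6.39% of all were. The estimates lay below 0 for 14 of the 17 members, against 55.3% of all tested miRNAs, and above 0 for 3, against 44.7% of all, with a median log2 difference of -0.235 against -0.05 over all. With library totals, 8 of 17 lay below 0 and the members' median was 0.02, and that scaling moved the median over all miRNAs by 0.25.

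miR-127-3p had the lowest p of the members. Its log2 difference between APAP and Control was -0.84 (SE 0.33, 95% interval -1.53 to -0.15; edgeR, unadjusted p = 0.0202, adjusted p = 0.351). Over the alternatives the adjusted p ranged from 0.104 to 0.974. Control replicate 3 carried much of the estimate: without it the difference was -0.29 (adjusted p = 0.777), and without both that library and APAP replicate 3 it was -0.52 (adjusted p = 0.776). The lower estimates next in order of p were those of miR-381-3p, -0.54 (SE 0.31, adjusted p = 0.546), and miR-409-3p, -0.53 (SE 0.36, adjusted p = 0.618).

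The 3 estimates above 0 belonged to minor members: miR-434-3p with 0.27 (SE 0.44, adjusted p = 0.882), miR-411-3p with 0.38 (SE 0.68, adjusted p = 0.891) and miR-376b-3p with 0.25 (SE 0.59, adjusted p = 0.920). Without APAP replicate 3, miR-434-3p came to -0.12 and miR-411-3p to -0.43. For the 2 most abundant members the estimates were -0.27 for miR-411-5p (SE 0.23, 95% interval -0.76 to 0.22) and -0.11 for miR-379-5p (SE 0.30, -0.74 to 0.52). With library totals miR-379-5p came to 0.14. The groups did not overlap for 1 of the 17 members, miR-409-3p, which was lower in APAP and overlapped with library totals. Of all tested miRNAs, 8.06% were lower and 8.61% higher without overlap in this comparison.

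The second comparison asked what dmPGE2 given before APAP did against APAP alone. The test called 0 of the 17 members, as did DESeq2 and limma-voom, against 0.278% of all 360 miRNAs. At an unadjusted p under 0.05 there were 0 members in either direction, against 2.50% of all miRNAs higher and 3.89% lower. The estimates were above 0 for 11 members, against 50% of all miRNAs, with a median of 0.21 against 0.00 over all. The median was 0.54 without APAP replicate 3, and 0.07 without APAP replicate 1.

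The higher estimates with the lowest p were those of miR-127-3p, miR-381-3p and miR-411-5p. The largest estimate, 0.71 (SE 0.57), belonged to the low miR-495-3p. miR-127-3p was higher by 0.68 (SE 0.33, 95% interval -0.03 to 1.39, edgeR unadjusted p = 0.0600, adjusted p = 0.703). Its adjusted p was 0.0807 without both Control replicate 3 and APAP replicate 3, a fit chosen after seeing the data. Over the other alternatives its adjusted p lay between 0.358 and 0.993. The difference was 0.61 (SE 0.32, interval -0.08 to 1.30, adjusted p = 0.731) for miR-381-3p and 0.36 (SE 0.23, -0.13 to 0.86, adjusted p = 0.896) for miR-411-5p. On the lower side were miR-127-5p with -0.34 (SE 0.66, adjusted p = 0.931), miR-411-3p with -0.34 (SE 0.75, adjusted p = 0.938) and miR-136-3p with -0.14 (SE 0.35, adjusted p = 0.960). Of these, miR-411-3p came to 0.54 without APAP replicate 3 and miR-136-3p to 0.10 without dmPGE2+APAP replicate 2.

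The dmPGE2+APAP libraries lay wholly above the APAP libraries for 3 of the 17 members, miR-127-3p, miR-300-3p and miR-381-3p, where 5.83% of all tested miRNAs did so. No member lay wholly below, where 8.06% of all did. With library totals miR-127-3p overlapped, while miR-300-3p and miR-381-3p did not. miR-300-3p, at 3.47 ± 0.391 CPM in APAP and 4.20 ± 0.0942 CPM in dmPGE2+APAP (SD, n = 3 each), had a log2 difference of 0.26 (SE 0.35, adjusted p = 0.923), so separate ranges here did not mean a difference past the test. The first and second comparison share the APAP libraries, and a low or high APAP library moves both.

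**Figure D5:**
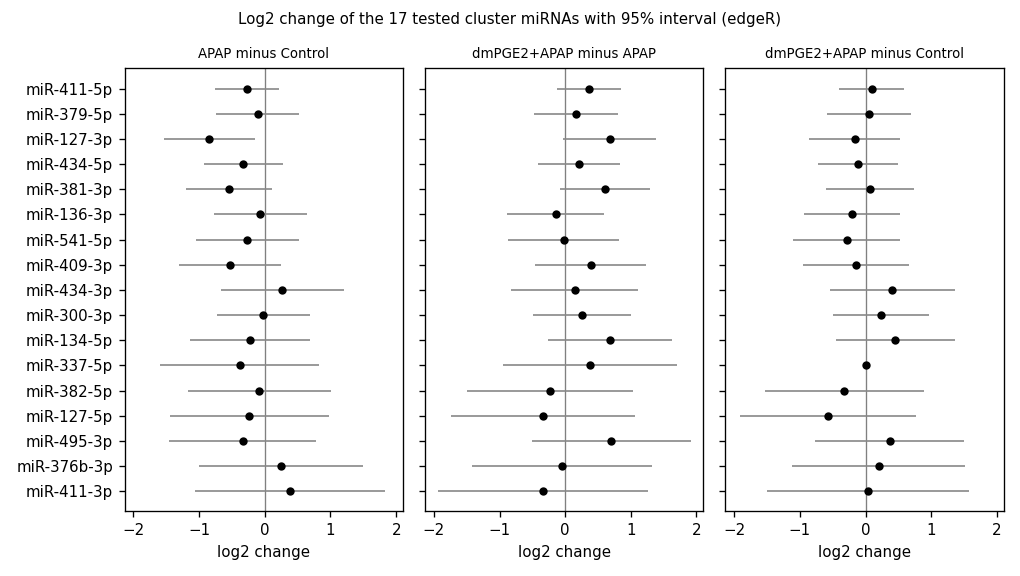
Log2 difference of each of the 17 tested members (x axis) with its 95% interval, in 3 panels, 1 per comparison. 1 interval leaves 0 out, that of miR-127-3p between APAP and Control (-1.53 to -0.15), and none passed the adjusted threshold; miR-337-5p has no interval in the panel where its value is 0.00.

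The third comparison set dmPGE2+APAP against saline. The test called 0 of 17 members, as did DESeq2 and limma-voom, against 0.278% of all miRNAs, and at an unadjusted p under 0.05 there were 0 members in either direction, against 5.56% of all miRNAs higher and 5% lower. The median over members was 0.04 against -0.03 over all, and 10 of 17 estimates were above 0, against 46.1% of all miRNAs, and 7 below, against 53.9%. With library totals, 13 were above 0 with a median of 0.25, and that scaling moved the median over all miRNAs by 0.23. No member had separate ranges with TMM scaling, where 6.11% of all miRNAs were higher and 8.61% lower without overlap. Scaled by library totals, miR-300-3p was higher in every dmPGE2+APAP library than in every Control library.

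The estimates of the abundant members lay near 0: 0.09 (SE 0.23) for miR-411-5p, 0.05 (SE 0.30) for miR-379-5p and -0.17 (SE 0.33) for miR-127-3p. The last of these came to 0.39 without Control replicate 3. The lowest p in the higher direction were those of miR-134-5p, 0.45 (SE 0.43, adjusted p = 0.675), miR-434-3p, 0.41 (SE 0.45, adjusted p = 0.711) and miR-495-3p, 0.37 (SE 0.53, adjusted p = 0.789). In the lower direction they were miR-127-5p, -0.58 (SE 0.63, adjusted p = 0.711), miR-541-5p, -0.29 (SE 0.38, adjusted p = 0.776) and miR-136-3p, -0.21 (SE 0.34, adjusted p = 0.805). The SEs ran from 0.23 to 0.73 in this comparison, leaving out miR-337-5p, whose difference of 0.00 gives none, with the lowest for miR-411-5p and the highest for miR-411-3p.

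Another 33 rows of the table came from hairpins of the same locus without being listed members. They held 981 reads, of which 475 were miR-3071-5p. The test ran on 3 of them, miR-299a-3p, miR-3071-5p and miR-382-3p, and called 0 in each comparison. Between APAP and Control, miR-299a-3p differed by -0.30 (SE 0.45). Outside the locus, a list of 9 miRNAs from other imprinted regions had 5 rows. The 2 tested, miR-335-3p (746 reads) and miR-335-5p (329 reads) of the imprinted Mest gene, were called in 0 comparisons.

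Markers of cell types were summed in each library, since this cluster is expressed more strongly in other tissues than in hepatocytes. The hepatocyte list (4 of 4 in the table) was led by miR-122-5p. It came to 293300, 417400 and 256400 CPM in Control, 255900, 278400 and 241400 CPM with APAP, and 287500, 277100 and 287800 CPM with dmPGE2+APAP. Within Control and within APAP it was lowest in replicate 3, where the cluster was highest. Within dmPGE2+APAP it was highest in replicate 3, as the cluster was. Neuronal markers (7 of 7) came to 12.4 to 17.9 CPM in Control, 16.0 to 17.5 with APAP, and 17.2 to 47.7 with dmPGE2+APAP, with 1 read of miR-124-3p in all 9 libraries. The value of 47.7 CPM came from the shallowest library, and the other dmPGE2+APAP libraries stood at 17.2 and 18.4 CPM. Stellate and mesenchymal markers (6 of 7) came to 26200 to 42030 CPM in Control, 24950 to 37590 with APAP, and 26180 to 42080 with dmPGE2+APAP. Most of this sum is miR-143-3p, with 1767323 reads against 21485 for the next marker, miR-152-3p, so it says little of the other markers. The sum was highest in APAP replicate 3 within APAP, like the cluster, but in Control replicate 1 and dmPGE2+APAP replicate 2 within the other groups, unlike the cluster.

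Epithelial and bile duct markers (5 of 5) came to 477, 555 and 881 CPM in Control, 531, 597 and 669 CPM with APAP, and 479, 1008 and 654 CPM with dmPGE2+APAP. They were highest in Control replicate 3 and APAP replicate 3 within those groups, as the cluster was, but in dmPGE2+APAP replicate 2 within the third, unlike the cluster. Red cell markers (4 of 4) came to 430.6 to 543 CPM in Control, 730.5 to 1398 with APAP, and 352 to 379 with dmPGE2+APAP, ranges that did not overlap. Muscle markers (7 of 7) came to 483 to 2704 CPM in Control, 315 to 905 with APAP, and 342 to 722 with dmPGE2+APAP. The endothelial (2 of 2), myeloid (4 of 4) and lymphoid (2 of 2) lists came to 7436 to 10170, 124 to 319 and 13.9 to 33.1 CPM over all libraries. The part of these markers in the cluster's values was not tested.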

How the data were processed

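Mature miRNAs were counted by small-RNA sequencing in 9 liver libraries, 3 per group. Per the file headers, the deposited values used are read counts, raw and whole, with 1 row for each mature miRNA. The submitters' processing notes name Bowtie and mm10. The sources used here do not give versions, the counter, the annotation source or the use of strand. Library totals ran from 1038799 to 10483460 reads. The 9 columns of normalized values in the same table were not used. Columns with another prefix than the 2 treated groups were taken as Control, by elimination.

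The main test was edgeR 4.0.16 (in R 4.3.3), the quasi-likelihood test with robust dispersions, TMM scaling and filterByExpr at a minimum count of 10 and a minimum total of 15, in 1 fit over 9 libraries with 3 group means. The 360 miRNAs that passed were adjusted by the Benjamini-Hochberg method, threshold 0.05. The SE is the log2 difference over the root of F. Alternatives used DESeq2 1.42.0, limma 3.58.1 (voom), library totals, RLE and upper quartile scaling, other filters, only the groups compared, a replicate block, thinning to equal depth, counting shared reads once and leaving out each library. Leaving out 2 libraries together was added after seeing the data. The fit was checked on simulated counts.

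Summed cluster levels carry no p-value. The members named were the 8 with the highest mean CPM, the 3 lowest unadjusted p in each direction per comparison, members whose groups did not overlap, and both arms of a hairpin. The members and lists were chosen with earlier results of these data known. Members, hairpins and sequences were matched by name to RefSeq tables (GRCm38.p6). No 2 libraries of a group were the same library deposited again: their counts differed beyond sampling noise (chi-square over degrees of freedom 65.4 to 1778).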

Additional observations from a re-analysis of the deposited data

How the results depend on the processing

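No member passed the adjusted threshold in any comparison under any of the 21 alternatives run for each, and the summed cluster ratio moved by less than the spread between replicates under each of 13. The ratio's leave-one-out ranges were -0.50 to -0.08 for APAP against Control, 0.18 to 0.56 for dmPGE2+APAP against APAP and -0.06 to 0.22 for dmPGE2+APAP against Control. The following named members changed sign, none of them past the threshold before or after, and the cause was not tested. For APAP against Control, miR-379-5p came to 0.14 with library totals. Leaving out 1 library at a time gave -0.50 to 0.22 for miR-379-5p, -0.12 to 0.55 for miR-434-3p, -0.43 to 0.94 for miR-411-3p and -0.038 to 0.53 for miR-376b-3p. Leaving out both Control replicate 3 and APAP replicate 3, an alternative chosen after seeing the data, gave -0.0067 for miR-434-3p and -0.44 for miR-411-3p. For dmPGE2+APAP against APAP, it gave 0.54 for miR-411-3p, and thinning to equal depth gave 0.56 for miR-136-3p. Leaving out 1 library gave -0.028 to 0.60 for miR-379-5p, -0.72 to 0.54 for miR-411-3p and -0.45 to 0.10 for miR-136-3p. For dmPGE2+APAP against Control, no filter gave -0.018 for miR-411-5p and -0.062 for miR-379-5p, thinning gave -0.14 for miR-411-5p and 0.15 for miR-136-3p, library totals gave 0.011 for miR-127-3p, and leaving out both libraries gave 0.43 for miR-127-3p and 0.0565 for miR-541-5p. Leaving out 1 library, or both, gave -0.071 to 0.2957 for miR-411-5p. Leaving out 1 library gave -0.077 to 0.39 for miR-379-5p, -0.33 to 0.39 for miR-127-3p, -0.43 to 0.0071 for miR-541-5p and -0.50 to 0.058 for miR-136-3p.

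With the replicate number as a block, 0 members were called in each comparison, with medians of -0.27, 0.23 and 0.08, and 0, 2 and 1 of all miRNAs were called. Correlations of same-numbered libraries of different groups ran from -0.25 to 0.19, and those of differently numbered ones from -0.30 to 0.15. These like ranges show no pairing by number. They do not settle whether libraries were paired or shared a batch, since the Control numbers are names only. Over all miRNAs tested, the 3 calls between APAP and Control became 13 with DESeq2, 8 with library totals, 9 with no filter, and 0 with the block or thinning; the single call of each of the other comparisons ranged over 0 to 9 for dmPGE2+APAP against APAP and 0 to 2 for dmPGE2+APAP against Control. Depth limits all members but the first few: a minimum mean of 10 CPM left 4 to test, and thinning left 6 to test.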
